A study of Homo sapiens with 6 samples.

Results

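Distal regions of open chromatin that were called in every library of the series are described here. They come from GM12878, a human line of B lymphoblasts that Epstein-Barr virus keeps dividing. Peak summits of all 6 libraries on chromosomes 1 to 22 that lay under 500 bp apart were chained into 91874 regions on hg38. A region was counted as a member when each of the 6 deposited lists held a summit in it and its midpoint lay over 20 kb from every end of a protein-coding gene. In total 7657 regions met both conditions. The members were therefore selected on the calls themselves, and their presence in all libraries is not a result. They are set beside the 4366 regions, past the same 20 kb limit, that were called in both live control libraries and in no sorted library. That number depends on the lists: it was 11403 without live 1, 10585 without live 2 and 387 on lists cut to the length of the shortest.

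Per the labels, the cells were stained for viability, fixed in 1.6% paraformaldehyde, stained intracellularly and sorted by their H3K27ac staining. The H3K27ac-high and H3K27ac-low groups are such sorted, fixed and crosslink-reversed cells, and the live control is live, unsorted cells without crosslink reversal, each with 2 libraries. The sorted cells thus differ from the live control in fixation, staining, sorting and crosslink reversal together, which cannot be told apart. The staining protocol writes the antibody target as H3K37ac, which was read as H3K27ac. Replicates were portions of 50000 cells from 1 cell line, so the spread between them may be technical. Accessibility was read by InTAC-seq, which adapts ATAC-seq to fixed cells with intracellular stains: Tn5 transposase cut open DNA and tagged it for 30 min at 37 °C.

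Open chromatin far from gene ends holds enhancers, insulator sites and the promoters of noncoding RNAs. Enhancers are bound by transcription factors of the lineage and act on promoters over long distances, and acetylation of H3 at lysine 27 marks active enhancers and active promoters. In B lymphoblastoid cells, PAX5, EBF1, RUNX3 and the NF-kB factors driven by viral proteins are known to act through such sites.

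Some members lay at an annotated transcription start in spite of their distance from gene ends, since the gene's table entry gives only its outermost ends or the transcript is noncoding. The promoter windows below, from RefSeq (GRCh38.p14), are shown because they belong to the members ranked highest in all libraries, 4 at starts inside protein-coding genes and 3 at starts of long noncoding RNAs. Each runs 5′ to 3′ on the strand of the gene, 250 bases before to 50 bases after the start. Capitals mark the span between the first and the last summit of the 6 libraries, as far as it lies in the window.
RPS6KA2 (chr6:166627202-166627501, minus strand): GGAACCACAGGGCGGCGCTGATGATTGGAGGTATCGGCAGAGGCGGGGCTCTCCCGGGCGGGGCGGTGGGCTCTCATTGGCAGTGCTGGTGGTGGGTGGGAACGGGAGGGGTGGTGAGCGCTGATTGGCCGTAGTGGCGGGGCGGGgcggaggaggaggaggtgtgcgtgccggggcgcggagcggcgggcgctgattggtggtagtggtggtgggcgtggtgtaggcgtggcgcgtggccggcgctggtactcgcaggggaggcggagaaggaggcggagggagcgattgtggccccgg
RTN4 (chr2:55050402-55050701, minus strand): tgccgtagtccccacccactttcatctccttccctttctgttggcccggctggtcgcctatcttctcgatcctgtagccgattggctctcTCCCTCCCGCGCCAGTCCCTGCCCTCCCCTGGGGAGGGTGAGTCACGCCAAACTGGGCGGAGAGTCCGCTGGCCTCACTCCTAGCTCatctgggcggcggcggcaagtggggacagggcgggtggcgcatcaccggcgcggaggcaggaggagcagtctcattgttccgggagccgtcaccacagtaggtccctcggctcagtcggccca
ANO10 (chr3:43621962-43622261, minus strand): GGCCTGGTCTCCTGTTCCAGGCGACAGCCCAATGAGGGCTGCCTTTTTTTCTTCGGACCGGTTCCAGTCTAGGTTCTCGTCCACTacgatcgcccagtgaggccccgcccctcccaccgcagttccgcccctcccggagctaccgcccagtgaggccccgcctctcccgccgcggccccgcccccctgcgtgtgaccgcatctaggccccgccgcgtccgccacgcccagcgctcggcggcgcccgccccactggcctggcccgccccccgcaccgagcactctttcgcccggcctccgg
GCA (chr2:162343882-162344181, plus strand): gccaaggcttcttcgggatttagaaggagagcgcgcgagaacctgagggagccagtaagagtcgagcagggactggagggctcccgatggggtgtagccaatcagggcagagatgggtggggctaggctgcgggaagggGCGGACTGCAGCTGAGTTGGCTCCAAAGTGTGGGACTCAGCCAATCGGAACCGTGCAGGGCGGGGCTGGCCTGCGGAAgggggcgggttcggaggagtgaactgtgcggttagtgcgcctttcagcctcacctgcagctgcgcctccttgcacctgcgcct
LOC100132249 (chr9:62838297-62838596, minus strand): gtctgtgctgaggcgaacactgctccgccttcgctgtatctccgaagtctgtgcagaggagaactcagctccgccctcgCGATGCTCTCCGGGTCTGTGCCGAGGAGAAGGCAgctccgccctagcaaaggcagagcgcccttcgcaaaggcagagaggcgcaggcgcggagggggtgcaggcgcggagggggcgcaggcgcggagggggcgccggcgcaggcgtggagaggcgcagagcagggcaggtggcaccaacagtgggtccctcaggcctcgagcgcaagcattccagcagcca
DANCR (chr4:52712144-52712443, plus strand): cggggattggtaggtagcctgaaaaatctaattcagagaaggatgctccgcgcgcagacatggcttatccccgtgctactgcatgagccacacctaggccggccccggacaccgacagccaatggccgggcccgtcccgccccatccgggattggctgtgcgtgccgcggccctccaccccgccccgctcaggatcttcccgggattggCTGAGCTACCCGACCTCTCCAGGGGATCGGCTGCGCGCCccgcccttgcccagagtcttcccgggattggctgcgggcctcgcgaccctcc
LINC01003 (chr7:152463874-152464173, plus strand): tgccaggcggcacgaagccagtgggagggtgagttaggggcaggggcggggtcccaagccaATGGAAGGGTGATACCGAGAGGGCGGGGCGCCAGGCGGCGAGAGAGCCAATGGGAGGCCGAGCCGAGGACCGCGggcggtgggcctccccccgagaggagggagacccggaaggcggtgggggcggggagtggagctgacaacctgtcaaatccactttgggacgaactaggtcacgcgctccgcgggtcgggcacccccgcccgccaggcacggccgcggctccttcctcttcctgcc

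In RTN4, GCA, LOC100132249, DANCR and LINC01003 all 6 libraries had a summit inside the window, against 5 libraries in RPS6KA2 and 3 in ANO10. The summits of the 6 libraries spanned 39 bases in DANCR, which lie between 41 and 3 bases before its start, and 34 bases in LOC100132249. GC content of the windows was between 64.3% in GCA and 73.7% in ANO10. Sequence of members outside promoter windows was not used here.

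Being called in all 6 libraries became rarer with distance from genes. Of all 91874 regions, 21.7% were called in all libraries, and of the 49158 regions over 20 kb from a gene end, 15.6% were. The share was 28.9% within 20 kb of a gene end, 17.9% between 20 and 50 kb, 16.7% between 50 and 100 kb, 15.1% between 100 and 200 kb, 12.1% between 200 and 500 kb and 9.73% beyond 500 kb. Regions called in live control alone, 8.88% of the distal regions, showed a flatter profile, between 7.57% beyond 500 kb and 9.46% between 20 and 50 kb. The 95% Wilson intervals (counting error alone) did not overlap between the first distance class and any later one for the shared regions. The plot of shares by distance shows both profiles.

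**Figure D1:**
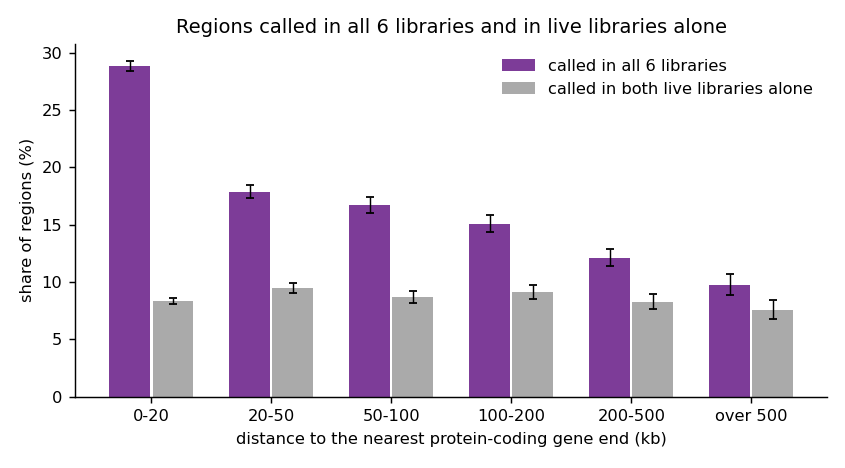
Share of regions (%, vertical axis) called in all 6 libraries and in both live control libraries alone, by distance to the nearest protein-coding gene end (kb, horizontal axis). Bars are shares of all regions in a distance class and whiskers are 95% Wilson intervals. The share called in all libraries is 28.9% within 20 kb and 9.73% beyond 500 kb, while the live-only share stays between 7.57% and 9.46%.

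The number of members rests on the shortest list. The lists held 25754 and 46708 summits for H3K27ac high, 41980 and 51944 for H3K27ac low, and 70100 and 72476 for the live control. Read depth is unknown, since the lists carry no read counts. Among 5228 distal regions called in exactly 5 libraries, 4394 (84.0%) lacked only H3K27ac high 1. Without that library the rule would give 12044 members. Members were 73.9% and 37.9% of the distal regions of the high libraries, 42.3% and 33.6% of those of the low libraries, and 23.2% and 22.2% of those of the live libraries.

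Member rank was read within each library as a percentile of its best summit score among the 19982 regions called in all libraries, near genes or far, with 100 the strongest. Scores are those given by the authors and share no scale between lists. The region ranked first in every library lay at chr3:93470576-93470596, 402465 bp from PROS1, the gene of the anticoagulant protein S, with scores of 284 and 274 in H3K27ac high, 308 and 286 in H3K27ac low, and 201 and 219 in live control. It lies beside the centromere of chromosome 3, where repeats are known to collect reads, and whether the submitters left out such regions is not given in the sources used here. The second was in HSD17B12, an enzyme of fatty acid elongation, with percentiles of 99.7 and 99.8 in H3K27ac high, 99.5 and 99.98 in H3K27ac low and 99.3 and 99.8 in live control. Both were picked for a high lowest percentile over the 6 libraries, so a small spread follows from the choice.

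The other 10 highest members lay in or near STARD13, a GTPase-activating protein, LOC124907776, RPS6KA2, a ribosomal S6 kinase, ATP8A1, a phospholipid flippase, RTN4, a membrane protein of the endoplasmic reticulum, DEGS2, ANO10, NFE2L3, CREM, a cAMP-responsive transcription factor, and GCA, a calcium-binding protein. The RTN4 region (chr2:55050525-55050611) had percentiles of 98.03 and 99.3 in H3K27ac high, 98.6 and 99.6 in H3K27ac low, and 97.5 and 99.4 in live control. The GCA region (chr2:162344021-162344098) had 99.1 and 98.2 in H3K27ac high, 97.8 and 96.7 in H3K27ac low, and 98.8 and 99.0 in live control. In both, the groups overlapped or lay within 3 points of each other, which the same choice favours. Of these 12 highest members, 4 sat on one of the promoter windows printed above.

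Across all members the ranks were moderate, and highest in H3K27ac high. All ranked regions had to be called in high 1, the shortest list, so these ranks rest partly on calls that the rule used. How much this adds to the gap between groups was not tested. The median percentile was 43.9 and 38.8 in H3K27ac high, 35.1 and 34.8 in H3K27ac low, and 36.9 and 37.5 in the live control. Both high libraries lay above all others, and the low libraries were the lowest. The group means were 41.3 ± 3.63, 35.0 ± 0.21 and 37.2 ± 0.45 (SD, n = 2 each). High minus low was 6.34 points, with an exact two-sided permutation p of 0.3333, the smallest that 2 libraries against 2 allow. Without high 1 the difference was 3.13. It was 2.59 when regions were ranked within classes of gene density, and 10.8 on lists cut to the length of the shortest. Sorted minus live was 0.947 (exact two-sided permutation p = 1), and its sign changed with 3 alternatives. Regions called in all libraries within 20 kb of genes had medians of 54.4 and 57.6 in high, 61.8 and 61.3 in low, and 58.7 and 58.3 in live, which is the other side of the same ranking and no separate observation.

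The distal share was also read at the top of the same ranking, so the same limit holds. Distal regions made up 22.5% and 16.2% of the best 10% of shared regions in H3K27ac high, 6.41% and 8.26% in H3K27ac low, and 16.7% and 17.5% in live control. The low libraries held the fewest, and the high and live libraries overlapped. High minus low was 12.03 percentage points (exact two-sided permutation p = 0.3333), 5.15 when regions were ranked within gene density classes, and between 9.51 and 15.3 with 1 library left out. In the best 1%, distal regions were 12.5% and 9% in H3K27ac high, 4.5% and 5% in H3K27ac low, and 8.5% and 9.5% in live control, each over 200 regions. The plot of distal shares and ranks by library shows these values.

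**Figure D2:**
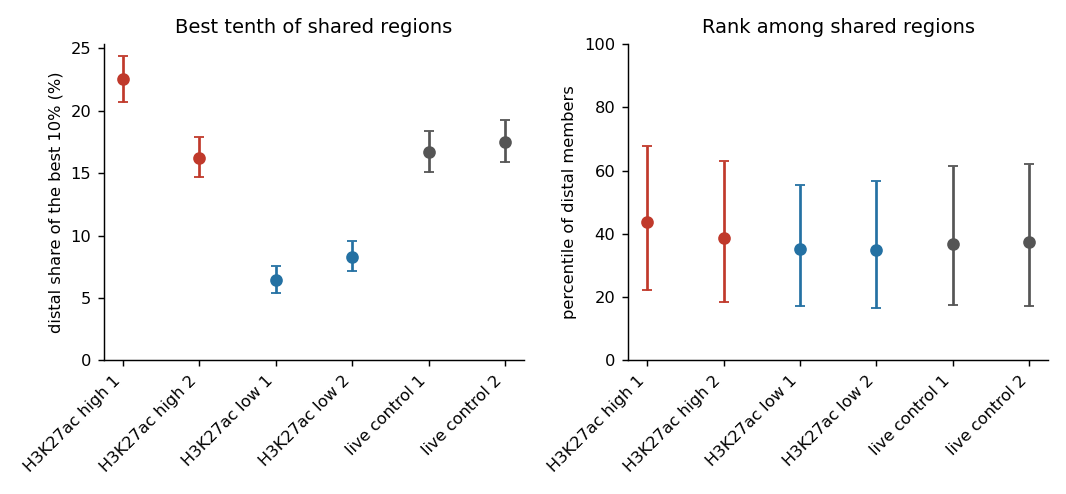
Left, the distal share (%) of the best 10% of regions called in all libraries, with 95% Wilson intervals. Right, the median percentile of the 7657 distal members among all shared regions, with whiskers from the lower to the upper quartile; colours mark H3K27ac high, H3K27ac low and live control. The distal share is 22.5% and 16.2% in high, 6.41% and 8.26% in low and 16.7% and 17.5% in live, and the quartiles of all 6 libraries overlap widely.

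Rank went with the number of genes around a member, in opposite directions in high 1 and in live control. For the 353 members with no protein-coding gene within 500 kb, median percentiles were 44.3 and 34.8 in H3K27ac high, 34.1 and 26.5 in H3K27ac low, and 28.0 and 30.1 in live control. For the 187 members with over 20 genes, they were 35.0 and 36.5 in H3K27ac high, 40.2 and 45.8 in H3K27ac low, and 47.1 and 46.6 in live control. The high libraries thus lay above low and live in gene-poor surroundings and below them in gene-rich ones. High minus low was 9.26 with no gene, 8.78 with 1 to 2, 8.61 with 3 to 5, 5.89 with 6 to 10, 0.286 with 11 to 20 and -7.31 with over 20. These differences are descriptions with no test, and the lines in the plot of rank by gene density show them per library.

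**Figure D3:**
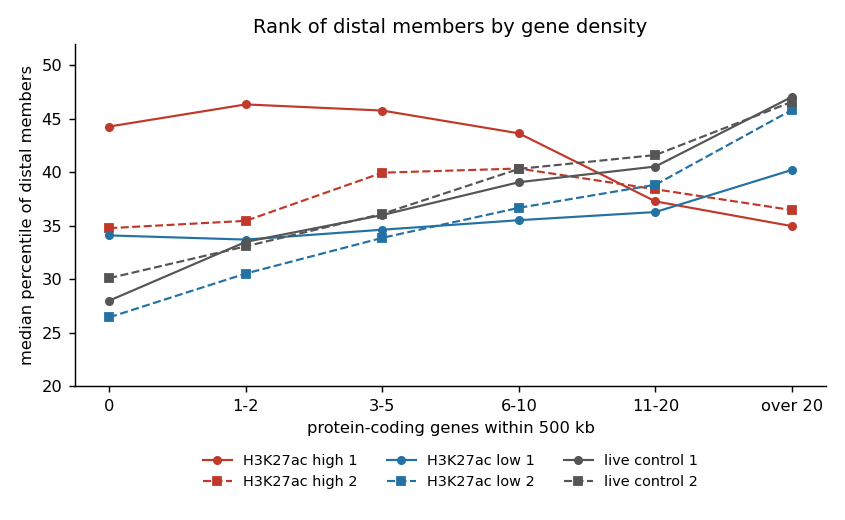
Median percentile of distal members among shared regions (vertical axis, shown between 20 and 52) by how many protein-coding genes lay within 500 kb (horizontal axis), 1 line per library. H3K27ac high 1 is at 44.3 with no gene and at 35.0 with over 20, while both live libraries are at 28.0 and 30.1 with no gene and at 47.1 and 46.6 with over 20.

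Single members were then counted by whether the libraries of the groups overlapped, with the same limit from the call in high 1. Both high libraries lay above both low libraries in 2580 members (33.7%), against 23.9% of all shared regions, and below both in 871 members (11.4%), against 23% of all shared regions. Without high 1 the shares were 44.5% above and 27.2% below, against 36.5% and 35.9% of all shared regions, and within gene density classes they were 25.6% and 15.1%, against 21.7% and 21.3%. All 4 sorted libraries lay above both live libraries in 984 members (12.9%), against 14.9% of all shared regions, and below both in 960 (12.5%), against 14.4%. Members with high above low had a median of 5 genes within 500 kb and 3.29% sat in a promoter window. Members with high below low had a median of 7 genes, and 11.5% sat in a promoter window. The gap between group means exceeded 20 points in 1009 members with high above low and in 294 with high below low. This gap was counted in members only, so no share over all shared regions is at hand. Among shared regions within 20 kb of a gene end, both high lay above both low in 17.8% and below in 30.2%.

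The widest gaps were at regions near genes of varied function. The region near MC4R, a melanocortin receptor, had percentiles of 70.7 and 41.5 in H3K27ac high, 0.763 and 2.18 in H3K27ac low, and 9.33 and 1.79 in live control. At MC4R the live values lay with the low values. The region in SP100, a component of nuclear bodies, had 69.4 and 36.7 in high, 0.393 and 3.24 in low, and 42.3 and 42.0 in live. The region in GPAT3, an acyltransferase of glycerolipid synthesis, had 73.4 and 34.5 in high, 3.35 and 0.878 in low, and 5.85 and 17.6 in live. At SP100 the live values lay between low and high 1, and in these 3 regions high 1 was the highest library.

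In the opposite direction, the region near PTMA, the gene of prothymosin alpha, had 5.93 and 10.8 in H3K27ac high, 58.7 and 74.9 in H3K27ac low, and 47.1 and 47.0 in live control. The region near HDAC11, a histone deacetylase, had 2.95 and 60.1 in H3K27ac high, 87.1 and 73.2 in H3K27ac low, and 66.7 and 86.2 in live control. At HDAC11 the high libraries lay far apart, and both lay under every low and live library. The region near BAHCC1, in the promoter window of the noncoding RNA RENO1, had 6.08 and 46.1 in high, 83.8 and 72.6 in low, and 57.9 and 57.3 in live. The region near EYS, a photoreceptor protein, had 1.97 and 28.8 in high, 60.7 and 65.3 in low, and 17.9 and 59.1 in live. These regions were chosen for their gaps, so the values are a description.

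Annotated transcription starts held few of the members, and a larger share of the strongest. Of the members, 379 (4.95%, 95% Wilson interval 4.49 to 5.46) overlapped a promoter window, against 60 of the live-only regions (1.37%, 1.07 to 1.76) and 1.76% of all distal regions. The share was 21% (14.2 to 30.0) among the 100 members with the highest lowest percentile and 11.4% among the best 1000. Together the members touched 440 windows, 203 of long noncoding RNAs and 237 of protein-coding genes. Members in a window had median percentiles averaging 55.7 in high, 55.7 in low and 57.2 in live, and a high minus low difference of 0.0138. Members outside windows averaged 40.8 in high, 34.1 in low and 36.3 in live, a high minus low difference of 6.67 (exact two-sided permutation p = 0.3333).

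Noncoding starts among the strongest members included DANCR, a long noncoding RNA whose member (chr4:52712353-52712391) lay 310 bp from MIR4449 and had percentiles of 95.003 and 98.1 in H3K27ac high, 96.1 and 98.1 in H3K27ac low, and 98.4 and 96.9 in live control. The member at LINC01003 (chr7:152463935-152464008) had 99.7 and 99.1 in high, 99.6 and 99.7 in low, and 95.9 and 94.2 in live. At LINC01003 the 4 sorted libraries lay above both live libraries, while at DANCR the groups overlapped. Members also lay at the ends of LOC105377308, LOC100132249, LOC107986997 and LINC02018, with no library under the 92.1 percentile. LOC100132249 and LOC107986997 lie in the duplicated stretches beside the centromere of chromosome 9, where reads of near-identical copies can be shared.

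Short motifs were searched on both strands of the windows, as letters only. TGANTCA, the AP-1 core, was in 12.3% of the 440 member windows, against 12.5% of the 64 live-only windows and 7.67% of all 33725 windows. GGAAGT, an ETS core, was in 32.0% of member windows, 28.1% of live-only windows and 22.8% of all windows. The Wilson intervals of member and live-only windows overlapped for both. The other motifs were TGTGGT (RUNX), CAGCTG (an E-box), GAAANNGAA (IRF), GGGNNTTCC (NF-kB), ATGCAAAT (the octamer) and CNNNAGGGG (part of the CTCF motif), and their member shares were between 2.95% for the octamer and 26.8% for CNNNAGGGG, against 1.75% and 26.1% of all windows. TGGGAA, the core bound by RBPJ, was in 19.5% of member windows, 20.3% of live-only windows and 23.9% of all windows, so its member share was under that of all windows. Matches of GGAAGT can overlap those of GAAANNGAA and GGGNNTTCC. Member windows had a median GC content of 62.3%, against 57.3% for live-only windows and 58.7% for all windows.

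By nearest gene end within 100 kb, 5016 members were assigned to 2826 genes, 14.8% of the 19126 protein-coding genes, and live-only regions to 11.3%. Of 20 transcription factors of the B lineage, 14 (70%) had a member and 4 had a live-only region. The members belonged to PAX5, EBF1, POU2F2, IKZF1, IKZF3, BACH2, BCL11A, IRF8, PRDM1, BCL6, FOXO1, MEF2C, ETS1 and RUNX3. MEF2C, ETS1 and IKZF1 had the most, with 8, 7 and 6. Of the 20, 15 had any distal region, and 1 of these, IRF4, had no member. By construction, isolated genes gather more distal regions than crowded ones. The share of genes with any distal region was 39.3% over all genes and 75% over this list. The part of gene surroundings in the gap to the background was not tested.

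Of 19 B cell surface and signalling genes, 7 had a member and 4 a live-only region, and of 25 genes of NF-kB and lymphoblastoid activation, 9 had a member and 8 a live-only region. In the first list these were CD83, CD38, BLK, LYN, BLNK, PLCG2 and CXCR4. The second held TNFAIP3, an inhibitor of NF-kB, with 5 members, BCL2, an inhibitor of apoptosis, with 6, and RBPJ, the DNA-binding partner of Notch and of viral nuclear antigens, with 4. MS4A1, CD79A and CD79B had no distal region of any kind. A member was found for 3 of 17 MHC genes (17.6%) and 2 of 18 T and NK cell markers (11.1%), both near the 14.8% of all genes. It was found for 1 of 16 myeloid markers, 0 of 13 erythroid and megakaryocyte markers and 0 of 24 ribosomal protein genes. The last 2 of these lists had few distal regions of any kind to choose among, at 23.1% of erythroid and megakaryocyte markers and 12.5% of ribosomal protein genes, against 39.3% of all genes. Of 16 neural developmental genes, 6 (37.5%) had a member and 12 (75%) had any distal region. That share with a member was close to those of the surface and signalling list (36.8%) and the NF-kB list (36%). All these shares lay above the 14.8% of all genes. Genes on the X chromosome were left out of the lists. The plot by gene list sets both kinds of region side by side.

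**Figure D4:**
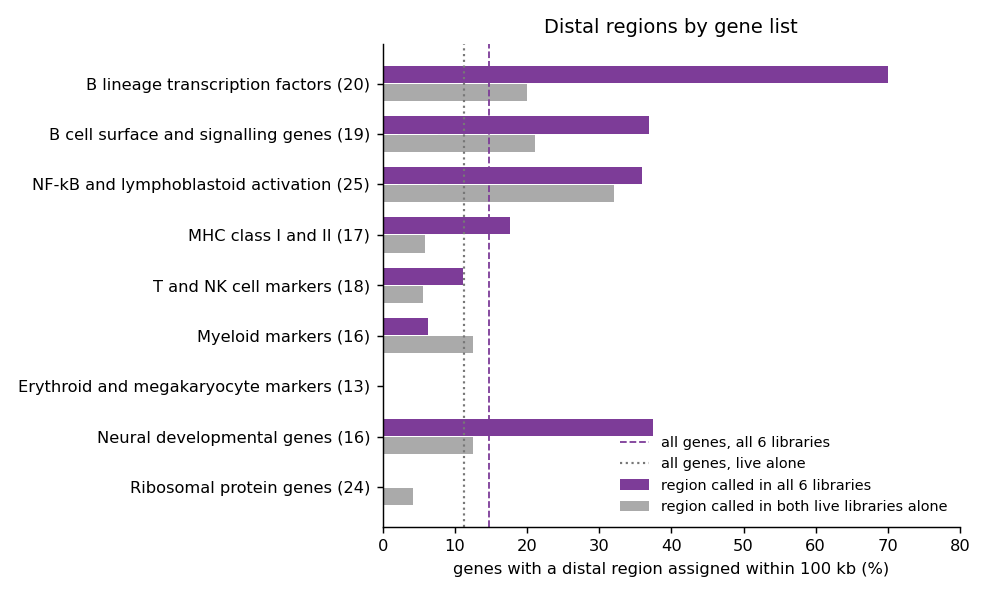
Share of genes (%, horizontal axis) with a distal region assigned within 100 kb by nearest gene end, for 9 gene lists with the number of genes on chromosomes 1 to 22 in brackets. Bars compare regions called in all 6 libraries and in both live libraries alone, and the vertical lines are the shares over all protein-coding genes, 14.8% and 11.3%. B lineage transcription factors are at 70% and 20%.

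The ranks of list members by library followed the general order only in part. The 48 members of B lineage factors had median percentiles of 40.6 and 39.2 in H3K27ac high, 44.4 and 39.6 in H3K27ac low, and 36.5 and 34.1 in live control, so high and low overlapped. Both high libraries lay above both low in 12 of them (25%) and below in 7 (14.6%). The 24 members of surface and signalling genes had 43.8 and 48.1 in high, 37.8 and 39.4 in low, and 35.0 and 37.6 in live, so both high libraries were the highest. The 23 members of the NF-kB list had 42.6 and 42.3 in high, 31.4 and 37.4 in low, and 32.3 and 36.5 in live. In the surface list 9 members (37.5%) were above and 1 (4.17%) below. The NF-kB list had 7 (30.4%) above and 1 (4.35%) below. Of all members assigned within 100 kb, 32.1% were above and 12.2% below, so the shares above were near that background.

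The single members of these genes named next were picked for a high lowest percentile over the 6 libraries. Their high rank in every library follows from that choice. The PAX5 region (chr9:36766095-36766140), beside the factor that commits cells to the B lineage, had percentiles of 94.0 and 92.2 in H3K27ac high, 81.1 and 94.5 in H3K27ac low, and 95.3 and 93.4 in live control. The LYN region (chr8:55930630-55930668), inside the gene of a kinase of the B cell receptor, had 92.4 and 83.4 in high, 87.9 and 77.6 in low, and 95.1 and 91.2 in live. At PAX5 all groups overlapped, and at LYN the high libraries overlapped with low and with live, while low lay under live. The RUNX3 region (chr1:25022551-25022633) had 77.8 and 79.6 in high, 78.3 and 71.0 in low, and 74.98 and 80.7 in live. Of the BCL2 regions, the one with the highest lowest percentile (chr18:63078542-63078645) had 83.3 and 87.4 in high, 84.3 and 77.1 in low, and 79.0 and 82.2 in live, and there high and low overlapped. A second one, inside BCL2 (chr18:63161916-63161947), had 96.7 and 87.2 in high, 77.5 and 60.9 in low, and 86.5 and 84.8 in live, with both high libraries above all others.

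Near CXCR4, a chemokine receptor of B cell migration, the best member had 76.3 and 76.4 in H3K27ac high, 62.2 and 72.2 in H3K27ac low, and 55.3 and 86.1 in live control. The region in CIITA, the regulator of MHC class II genes, had 20.8 and 44.2 in high, 19.4 and 17.99 in low, and 10.7 and 14.1 in live. HLA-DRB1 differed in order, with 29.9 and 42.3 in high, 58.0 and 46.9 in low, and 56.9 and 51.0 in live. In CIITA the high libraries were the highest and in HLA-DRB1 the lowest. The CD2 region, near an adhesion molecule of T and NK cells, had 68.7 and 83.3 in high, 60.6 and 57.8 in low, and 71.9 and 75.5 in live. The region near GZMB, the gene of the protease granzyme B, had 62.0 and 45.3 in high, 61.2 and 77.0 in low, and 41.6 and 51.8 in live. High lay above low at CD2 and overlapped with it at GZMB, and over the 5 members of T and NK markers high minus low in the mean of medians was -4.69. The region near LHX2, a forebrain factor, had 88.2 and 79.95 in high, 71.2 and 46.7 in low, and 78.8 and 80.2 in live. The region near NKX2-2, a factor of the neural tube, had 74.6 and 69.7 in high, 75.04 and 61.1 in low, and 57.2 and 79.8 in live. At LHX2 high lay above low, and at NKX2-2 the groups overlapped. The region in MRC1, a macrophage lectin, had 47.4 and 17.4 in high, 40.7 and 0.393 in low, and 4.97 and 3.51 in live. The heat map of named members gives all 6 values of each.

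**Figure D5:**
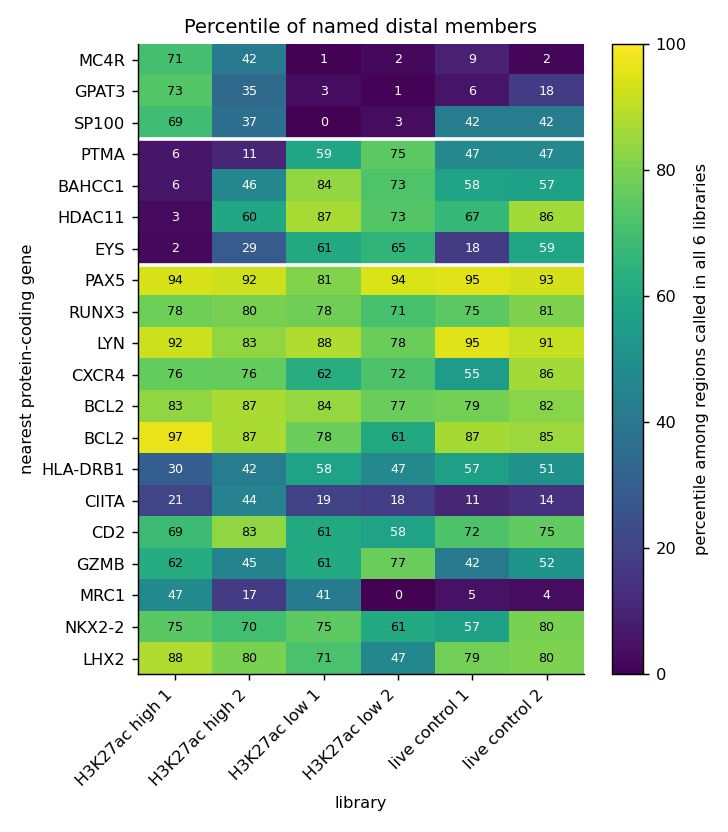
Percentile among regions called in all 6 libraries (colour and printed number) of named distal members, 1 row per member under its nearest protein-coding gene and 1 column per library. The top block holds 3 of the 4 widest gaps with high above low, the middle block the 4 with high below low, and the bottom block the best members of the gene lists; in the bottom block PAX5 is at 81.1 or higher in every library and MRC1 reaches at most 47.4.

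Members gathered around some genes. HIVEP2, a zinc finger transcription factor, had 14 of them among 31 distal regions, and no live-only region. LIMS1 had 10, and FYN, a Src family kinase, RBM47, an RNA-binding protein, and RGS1, a regulator of G protein signalling in B cells, had 9 each. Of the 2826 genes with a member, 1699 had 1 and 135 had 5 or more. With a gap of up to 12.5 kb, 783 members (10.2%) fell into 230 clusters of 3 or more. Another region of any kind lay within 12.5 kb of 73.5% of members, against 51.97% of live-only regions, and another member lay within it for 29.8% of members, against 10.99% of live-only regions.

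The clusters were set out after their values were seen, and no test was made. Of 8 clusters with 6 members or more, the largest held 8 members over 36482 bp of chromosome 8 (chr8:127178774-127215255), nearest to POU5F1B and on the side of it away from MYC, the growth-promoting transcription factor. Its median percentiles were 45.4 and 52.4 in H3K27ac high, 40.8 and 34.01 in H3K27ac low, and 24.4 and 18.7 in live control, and in 7 of 8 members the high mean was above the low mean. The 6 clustered members next to RGS1 (chr1:192530416-192552947) had 65.8 and 54.8 in high, 43.1 and 42.4 in low, and 20.1 and 23.5 in live, with the high mean above the low mean in all 6. In both clusters the medians of the live libraries were the lowest, but this did not hold for every single member. The 6 members next to IER5, an immediate early gene, had 20.03 and 18.6 in high, 21.2 and 27.5 in low, and 15.2 and 27.1 in live. Other clusters of 6 lay next to LLPH and CHD7, a chromatin remodeller, and in TNFAIP8, ARHGAP26 and SPTBN1, so that 7 clusters shared that size. By their medians both high libraries lay above both low in 6 of the 8 clusters and below both in 1, at IER5. The medians over all 7657 members also lay higher in both high libraries than in both low. Of all single members, 33.7% had both high above both low and 11.4% had both below. The share of all members with the high mean above the low mean is not at hand, so these counts are not read as particular to the clusters. Both live libraries were the lowest in 5 of the 8, and at LLPH, ARHGAP26 and IER5 they were not.

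The members farthest from genes varied in rank. One near LOC124904970 on chromosome 20 lay 2210556.5 bp from any protein-coding gene end, beside the centromere, and had 76.0 and 68.5 in H3K27ac high, 85.1 and 61.1 in H3K27ac low, and 49.7 and 65.9 in live control. One near PCDH7, a protocadherin, had 66.0 and 55.6 in high, 46.9 and 25.8 in low, and 15.6 and 45.5 in live. Another near PCDH7 had 17.6 and 24.2 in high, 4.05 and 9.46 in low, and 34.6 and 20.5 in live. High lay above low at both PCDH7 regions, and live reached the highest value at the second. The region near SUCLG1 had 66.0 and 5.32 in high, 5.84 and 4.59 in low, and 9.53 and 16.1 in live, so that high 1 alone ranked it high. The weakest members, in CCDC171 and near ADGRL3, DAD1 and CES5A, reached the lowest ranks among shared regions in at least 1 library. Just inside the distance limit lay the members near ADGRF4 (20001.5 bp) and SMNDC1 (20029 bp), with percentiles between 1.02 and 28.5, and just outside it the regions in HHAT (19999.5 bp) and near MACC1 (19992 bp), with percentiles between 4.50 and 54.0.

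Summits of different libraries fell close together within a member. In 7014 members (91.6%) each library had 1 summit, and the 6 summits spanned a median of 89 bp. The median offset between the 2 libraries of a group was 35 bp in high, 30 bp in low and 26 bp in live. It averaged 30.3 bp over the same-group pairs and 32.1 bp over the other pairs, a difference of -1.75 bp with an exact one-sided permutation p of 0.133 over 15 pairings, where the smallest possible is 0.0667. Without live 2 the difference was 0.25 bp. All pairs with high 1 had offsets between 35 and 38 bp. Several summits in 1 library were found in 1.91% and 2.96% of members in high, 2.60% and 3.23% in low, and 3.04% and 2.82% in live, a high minus low difference of -0.477 points (exact two-sided permutation p = 0.667). That difference was 0.0623 without high 1. Over the 7657 members, Spearman correlations of scores between libraries, a description with no test, ranged between 0.602 and 0.845, with 0.709 for the high pair, 0.809 for the low pair and 0.845 for the live pair.

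Live-only regions met the same 20 kb limit, and the rule itself sets part of their contrast with members. Members had to be called in every list, the shortest included, and live-only regions had to be missed by 4 shorter lists, so the ranks that follow are a description. Among all distal regions of a live library, members had median percentiles of 86.4 and 87.0, against 34.05 and 35.3 for the live-only regions. Their summits in the 2 live libraries lay a median of 27 bp apart in members and 41 bp apart in live-only regions. Median distance to a gene end was 64840 bp for members and 72431 bp for live-only regions. Outside any protein-coding gene body lay 49.7% of members (48.6 to 50.8) and 53.4% of live-only regions (51.95 to 54.9). An end of a long noncoding RNA lay within 1 kb of 6.53% of members and 3.48% of live-only regions. Over all distal regions the median distance was 76411.5 bp, 53.4% lay outside gene bodies and 4.04% had such a noncoding end. Position belongs to a region and not to a library, so these shares carry Wilson intervals for counting error and no test.

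Live-only regions were selected for having no sorted summit chained to them, so the next values are a description too. Another region called in a sorted library lay within 1 kb of 8.29% of members and 3.16% of live-only regions. The shares were 18.95% and 7.99% for members and live-only regions within 2 kb, and 35.3% and 17.9% within 5 kb. The strongest live-only regions were in RRAS2, a Ras-related GTPase, with percentiles among live distal regions of 84.5 and 86.1, in LDLRAD4 with 82.7 and 82.4, in SYNJ1 with 81.1 and 82.7, and near DCN with 80.5 and 80.01. The 8 values differed by under 3 points between the 2 live libraries. These regions were picked for a high percentile in the worse of the 2, which favours a small spread.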

How the data were processed

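Accessibility was measured in 6 libraries, grouped by their titles. Per the submitters' processing notes, bcl2fastq, FastQC, Bowtie2, Picard and MACS2 were used, with builds hg38 and hg19; versions, settings, Tn5 shift, duplicate removal and excluded regions are unstated in the labels. The deposited lists, 1 per library and not pooled, hold single-base summits with a score, read as the −log10 of a p-value or q-value from the authors' peak caller. Contig names fit hg38, and coordinates are 1-based. Scores grow with depth, so they were ranked within a library only.

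Summits on chromosomes 1 to 22 under 500 bp apart were chained. Genes, noncoding RNAs and promoter windows came from RefSeq tables (GRCh38.p14), which give gene ends without strand. Python 3.11.15, pandas 2.3.3, numpy 2.4.6 and scipy 1.17.1 were used. Chaining, the calls of shared and live-only regions, and the percentiles were tested on simulated summits. The other steps had no such test. Libraries were compared by exact permutation tests; with 4 libraries against 2 the smallest two-sided p is 0.133. Alternatives changed chaining, distance, list length, ranking, promoter windows, the replicate block and each library left out. The members, gene lists and tests were chosen with earlier results of these data known. Named regions were the 12 highest by their lowest percentile, the 4 widest gaps in each direction between high and low, the 2 best per gene list, the 4 farthest, the 4 lowest, those at the 20 kb limit, the 4 best live-only regions and the 6 best at noncoding ends; the windows of the last set were printed beyond that rule. Some of these regions and list genes are not reported here.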

Additional observations from a re-analysis of the deposited data

How the results depend on the processing

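With 1 library left out, high minus low in member rank was between 3.13 and 8.83, sorted minus live between 0.162 and 2.08, the distal share of the best 10% between 9.51 and 15.3 points, the summit offset between -5.88 and 0.25 bp, and the share with several summits between -0.921 and 0.0623 points. Leaving out 1 library gave between 7699 and 12044 members, between 4532 and 11403 live-only regions, an intergenic difference between -6.18 and -2.41 points, between 2591 and 5361 members with high above low and between 875 and 3278 with high below low; these counts rest on fewer libraries by construction. Sorted minus live in rank reversed to -0.0435 on lists cut to the shortest, to -0.0279 with mean percentiles and to -0.624 within gene density classes, and the several-summits difference to 0.641 on the cut lists; the cause was not tested. Over 50 kb from gene ends there were 4629 members, 2765 live-only regions, 1629 members with high above low and 465 with high below low, since fewer regions qualify. The cut lists gave 4760 members, 387 live-only regions and 472 members with high below low. Of the 141 recomputed values, 6 reversed in sign and 17 others were counts or shares that changed by more than their limits, 1.5 times for a count and the counting interval for a share. For the differences between libraries, the sign and the side of a p threshold were compared in the other 118. These tests could not reach the threshold with so few libraries, so only the sign could differ. A summit offset difference of 0 without live 1 was counted as unchanged. Sizes varied: high minus low in rank was 2.59 within gene density classes. The several-summits difference was -0.0744 with chaining under 250 bp and -1.88 with chaining under 1000 bp.

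The replicate numbers did not pair the libraries: the correlations of their deviations were 0.0737 for high with low, -0.00959 for high with live and -0.00644 for low with live. With the replicate block the rank difference was 6.34 (exact permutation p = 0.5) and the several-summits difference -0.477 (exact permutation p = 0.5). In both, 0.5 is the smallest p that this permutation allows, so it cannot tell a difference from none. Read depth, which limits what a list can hold, is unknown.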
